A study of Rattus norvegicus with 8 samples.

Results

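Ly49 receptor high lymphocytes were 1608 of 32170 cell barcodes of rat liver immune cells. They were chosen by measured values: at least 500 unique molecular identifiers (UMIs, each 1 counted transcript molecule), under 20% of UMIs from mitochondrial genes, at least 3 UMIs summed over the Ly49 genes Klra22, Klra5, Ly49s6, Ly49i3 and Ly49s5, and none from Clec4a3, Siglech or Cd79a, which mark myeloid cells, plasmacytoid dendritic cells and B cells. These 8 genes chose the cells, so their levels are given as a description. The limits on UMIs and mitochondrial genes alone define the 32170 barcodes, and those that are not Ly49-high are called the other barcodes.

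The cells came from the livers of 4 male Han Wistar rats. NC1 and NC2 received the choline-sufficient, amino acid-defined CSAA diet, and PC1 and PC2 the choline-deficient CDAA diet. Immune cells of each animal were taken from a density gradient and loaded on the 10x Chromium system either fresh, with no preservation, or after cryopreservation in DMSO at week 3, which gave 8 libraries of 18338700 to 26471843 UMIs. The age of the animals is not given in the sources used here, and each diet had 2 animals. Fresh NC1, NC2, PC1 and PC2 gave 146, 264, 238 and 171 Ly49-high cells, and the same animals 85, 241, 249 and 214 after DMSO. Their summed depth ranged from 391768 UMIs in NC1 DMSO to 1469234 in NC2 fresh, so the DMSO library of NC1 carried the least precise values.

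Ly49 receptors are lectin-like membrane proteins, encoded side by side in the natural killer (NK) gene complex, that bind MHC class I molecules. In rodents they take the place of the human KIR family. Stimulatory members signal through the adaptor Tyrobp and inhibitory members through motifs in their own cytoplasmic tail, and NK cells and some T cells carry them in varying combinations. NK cells lack surface CD3, whereas T and NKT cells carry the CD3 chains with a T cell receptor. Ncr1 encodes the NK receptor NKp46 and Cd27 a costimulatory receptor found on T cells and on a subset of NK cells.

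The Ly49 genes lie in 1 cluster on chromosome 4. In the RefSeq gene order of the GRCr8 assembly, Ly49s5, Klra22 and Ly49s6 are near neighbours, Ly49i3, Klra1 and Klra5 follow, and Magohb lies at the far end of the cluster. The 250 bases before the start are shown for the 4 genes with the most UMIs in the Ly49-high cells, because a stretch of 12 letters, ATGAGGTTGAGT, is shared by all of them. It is in capitals, and all 4 sequences are on the minus strand of GRCr8 as given by RefSeq, not of the Rnor6.0 assembly used for the counts.
Ly49s6 (chr4:165790071-165790320): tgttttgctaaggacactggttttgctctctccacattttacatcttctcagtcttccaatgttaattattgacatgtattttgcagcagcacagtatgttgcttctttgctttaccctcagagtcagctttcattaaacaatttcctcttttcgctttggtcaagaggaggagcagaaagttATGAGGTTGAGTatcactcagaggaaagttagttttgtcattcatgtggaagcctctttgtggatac
Klra5 (chr4:166554851-166555100): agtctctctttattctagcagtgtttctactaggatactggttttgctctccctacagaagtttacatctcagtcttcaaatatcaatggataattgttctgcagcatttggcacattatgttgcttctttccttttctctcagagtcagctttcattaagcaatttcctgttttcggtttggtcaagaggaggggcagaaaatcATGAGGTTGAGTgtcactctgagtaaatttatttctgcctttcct
Klra22 (chr4:165743026-165743275): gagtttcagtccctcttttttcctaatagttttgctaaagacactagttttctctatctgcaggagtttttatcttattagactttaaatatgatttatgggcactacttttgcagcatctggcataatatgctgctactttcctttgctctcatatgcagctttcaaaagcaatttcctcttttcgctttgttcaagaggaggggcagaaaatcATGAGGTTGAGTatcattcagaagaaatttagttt
Ly49s5 (chr4:165645517-165645766): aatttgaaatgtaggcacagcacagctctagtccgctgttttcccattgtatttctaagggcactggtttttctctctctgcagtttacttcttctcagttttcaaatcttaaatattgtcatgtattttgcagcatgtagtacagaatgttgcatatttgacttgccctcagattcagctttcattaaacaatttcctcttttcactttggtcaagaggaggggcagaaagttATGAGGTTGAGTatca

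The stretch starts 67 bases before the start of Ly49s6, 45 before Klra5, 35 before Klra22 and 16 before Ly49s5. It was looked for on both strands after it had been seen in these genes, and 8 of 33469 promoters of this length held it (0.0239%), all on chromosome 4: Ly49s5, Klra22, Ly49s6, Klra5, Ly49si1, Klra17, Ly49i5 and LOC124459649. The windows of Ly49i3 and Klra1 did not hold exactly these letters, although that of Klra1 held atgaggtagagt, which differs at 1 letter. Over the best alignment of these windows without gaps, the closest pair of the 6 genes was Klra1 and Klra5, identical at 71.6% of 222 bases, and Klra22 and Klra5 reached 46.4% of 239, whereas Ly49i3 reached 33.5% to 37.2% with the other 5 genes. The counted 3′ tags were not compared, and as members of 1 multigene family may share reads, the split of UMIs between single Ly49 genes is uncertain.

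Most Ly49-high cells carried more than 1 of the receptors. Ly49s6, a stimulatory receptor by its name, was the broadest: it had at least 1 UMI in 90.0% of the cells and gave 4747 UMIs, 38.6% of the Ly49 UMIs. Klra5 was found in 53.7% of the cells, Klra22 in 51.3%, Ly49s5 in 43.1% and Ly49i3, named as an inhibitory receptor, in 20.1%. In all, 220 cells had UMIs of 1 of the 5 genes, 587 of 2, 488 of 3, 271 of 4 and 42 of all 5. Barcodes of another cell type also held some of these UMIs. The B gate was 1282 barcodes with at least 2 Cd79a UMIs, no UMI of Clec4a3 or Siglech and fewer than 3 Ly49 UMIs. In it Ly49s6 was found in 8.42% and Ly49i3 in 0.858%, shares that the limit on Ly49 UMIs itself holds down. The median was 2803 UMIs in the B gate against 5010.5 in the Ly49-high cells.

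The threshold of 3 UMIs cut a continuous range. The median Ly49 sum was 6 and the highest 45, with 314 cells at 3 and 444 at 10 or more. Another 673 barcodes with a sum of 2 lay just outside, with 2461 CPM (the UMIs of a gene scaled to the same total in every sum of cells) of Nkg7 and 139 of Magohb, against 2996 and 230 in the cells with a sum of 3. The conditions on the other genes left out 1415 barcodes with a Ly49 sum of at least 3, 1156 of which carried Siglech. Between pairs of libraries, 10 to 29 barcode sequences within the limits were shared, and 1 barcode was Ly49-high in both libraries of a pair.

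By the CD3 genes the Ly49-high cells were of 2 kinds. Of 1608 cells, 542 had no UMI of Cd3d, Cd3e and Cd3g and 364 had 1, so 906 cells (56.3%) were Cd3-low, while 406 cells (25.2%) had 5 or more and were called Cd3-high, with a median of 12. The remaining 296 cells had 2 to 4 CD3 UMIs. These limits of 1 and 5 were set after the distribution had been seen. They leave the middle class out, because single CD3 UMIs were common in barcodes of another cell type. Cd3g was found in 26.3% of the B gate. In the Cd3-low cells it was found in 18.8%, a share that the limit of 1 CD3 UMI itself holds down.

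**Figure D1:**
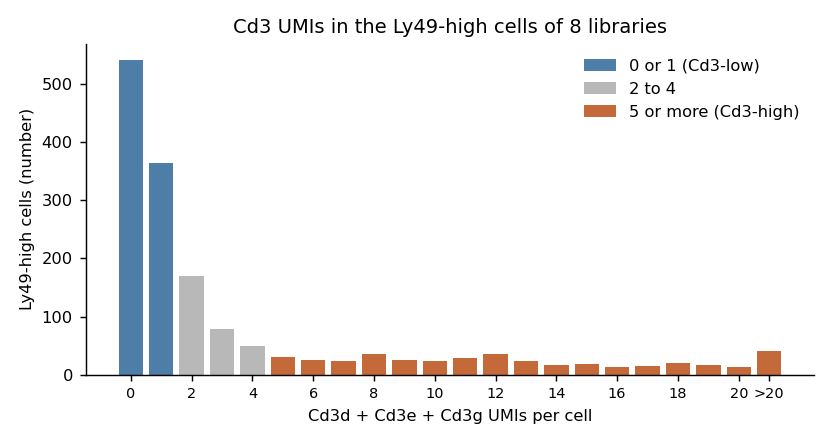
Number of Ly49-high cells (vertical axis) by their UMIs of Cd3d, Cd3e and Cd3g together (horizontal axis), over 8 libraries. The 906 Cd3-low cells form the peak at 0 and 1, and the 406 Cd3-high cells a flat range from 5 to over 20.

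The lineage genes followed this split. In the Cd3-high cells Cd3d was found in 95.3%, Cd3e in 97.5% and Cd3g in 98.5%, which the class itself requires. Ncr1 was found in 63.0% of the Cd3-low cells but in 21.9% of the Cd3-high cells. In barcodes without a Ly49 UMI, Ncr1 was found in 55.1% of an NK gate (at most 1 CD3 UMI, and Nkg7, Klrd1 and Prf1 together at least 0.3% of UMIs, 2802 barcodes, median 3252 UMIs) and in 9.71% of a T gate (at least 5 CD3 UMIs, 1071 barcodes, median 3799 UMIs).

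Depth set part of these shares, so they were also taken as the share expected in 1000 UMIs per cell, leaving out 18 Ly49-high cells with fewer. Ncr1 then reached 21.3% in the Cd3-low cells, 25.4% in the NK gate, 4.83% in the Cd3-high cells, 2.32% in the T gate and 2.81% in the B gate. Cd27 reached 12.9% in the Cd3-low cells, 24.5% in the Cd3-high cells, 5.78% in the NK gate, 21.6% in the T gate and 2.38% in the B gate. Cd247, the CD3 zeta chain that NK cells also use, was alike in both kinds of cell, with 21.9% and 20.2%, against 5.48% in the B gate.

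In CPM, Ncr1 lay between 163 and 262 in the Cd3-low cells of the 8 libraries (mean 218 ± 37.6, SD) and between 22.4 and 68.1 in the Cd3-high cells (46.2 ± 16.6). The ranges did not overlap. Cd27 lay between 80.2 and 251 in the Cd3-low cells and between 244 and 371 in the Cd3-high cells, and these ranges overlapped by a narrow margin.

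The receptors themselves differed between the 2 kinds. Klra22 had a mean of 154 CPM in the Cd3-low cells (117 to 209) and 522 CPM in the Cd3-high cells (459 to 577). Klra5 went the other way, with 502 CPM (357 to 657) and 167 CPM (37.4 to 259). Neither gene had overlapping ranges. Ly49s6 had 622 and 447 CPM and was found in 90.4% and 87.7% of the cells, Ly49s5 had 167 and 73.7 CPM, and Ly49i3 59.7 and 94.1 CPM. By its mean, Klra22 was the highest of these genes in the Cd3-high cells, although its range overlapped that of Ly49s6 (388 to 534), with a UMI in 83.0% of them against 37.3% of the Cd3-low cells. Klra1, a Ly49 gene that the choice of cells did not use, had 68.2 and 22.3 CPM, against 6.20 in the B gate. All levels are of 3′ tags, which carry no length term, but 3′ capture and shared reads may differ between genes.

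**Figure D2:**
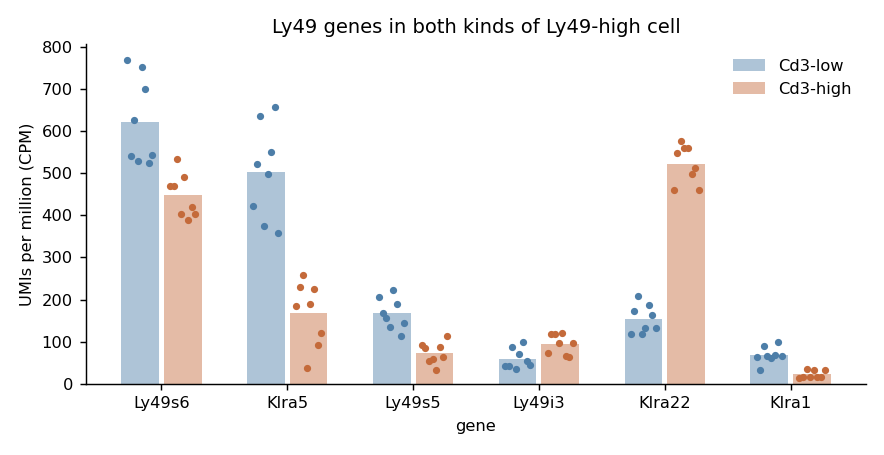
CPM of 6 Ly49 genes (vertical axis) in the Cd3-low and Cd3-high cells. Bars are means and points the 8 libraries. Klra22 lies between 459 and 577 CPM in the Cd3-high cells, above every Cd3-low value, and Klra5 shows the opposite order.

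The Cd3-low cells carried the transcripts of NK cells. Without Nkg7, Klrd1 and Prf1, which define the NK gate, the other 16 NK genes of the list found in the matrix summed to 22576 CPM in them, 23666 in the NK gate, 12557 in the Cd3-high cells, 7178 in the T gate and 7663 in the B gate, which gives the level in barcodes of another cell type. Its most abundant gene was Tyrobp, the adaptor of activating receptors. Tyrobp had 3197 CPM in the B gate, 6727 in barcodes with a Clec4a3 UMI and 5769 in the Cd3-low cells. Of the cytotoxic proteins, granzyme B (Gzmb) had 646 CPM against 822 in the NK gate and granzyme M (Gzmm) 4132 against 3862. Perforin (Prf1) had 2120 CPM against 2675, of which the second was set in part by the choice of the gate. The transcription factor Tbx21 had 141 CPM in the Cd3-low cells and 173 in the NK gate, while Eomes was near 0 in both (1.2 and 0.9 CPM).

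Against the NK gate, and with no test, a gene was called where the mean log2 ratio of CPM within libraries was at least 1 in size and had the same sign in 8 of 8 libraries. Among 9714 genes, 41 were higher in the Cd3-low cells (0.422%) and 23 lower (0.237%), of which 33 and 22 also differed 2-fold in mean CPM. No gene of the NK list was called (0 of 15 measured, median log2 ratio -0.21 beside 0.01 for all genes). The largest ratios were those of Ly49s4, Hbe1, Fcrl6, Klra1 and Sh3bgr. Fcrl6, an Fc receptor-like receptor of cytotoxic lymphocytes, had 48.6 CPM against 4.01, and Klra1 68.2 against 6.16. Hbe1, an embryonic globin gene, had 48.2 CPM against 3.54. Of the other killer lectin-like receptors, Klri1 was lower (197 against 407 CPM), while Klri2 had 581 against 310 CPM and Klre1 502 against 543 CPM, and neither was called. Cd27, of the NK maturation list, was also higher, by 1.26 ± 0.48 (log2, SD of 8 libraries), with 161 CPM against 66.0.

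Lower than in the NK gate were Cxcr6, a chemokine receptor of liver-resident lymphocytes (3.67 against 15.4 CPM), and Tnfsf10, the death ligand TRAIL (18.9 against 45.4 CPM). Both belong to the list of tissue-resident innate lymphoid (ILC1) genes, in which 2 of 6 measured genes were lower and none higher. Ncr3, Tnfrsf25, Adam19 and the chemokine Ccl1 were among the other genes that were lower. Integrin alpha 1 (Itga1) had 16.3 and 25.2 CPM.

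The Cd3-high cells carried T cell transcripts together with part of the NK set. The 19 T cell genes of the list found in the matrix included Cd3d, Cd3e and Cd3g, which define the classes and gates. The other 16 summed to 3072 CPM in the Cd3-high cells (2747 to 3746), 3071 in the T gate, 2361 in the Cd3-low cells (1813 to 2711), 2289 in the NK gate and 737 in the B gate. The coreceptor chain Cd8b had 138 CPM in the Cd3-high cells, 184 in the T gate and about 33 in the Cd3-low cells, the NK gate and the B gate alike. Cd8a, which rat NK cells carry as well, had 1031 CPM in the Cd3-high and 764 in the Cd3-low cells. Cd4 was at 8.0 CPM in both, as in the B gate (7.9). Zbtb16, the transcription factor of invariant NKT cells, had 0.9 CPM in the Cd3-high cells and none in the Cd3-low cells. A gene at or near 0 in these counts does not tell whether NKT cells were among them. The list of NKT and innate-like genes summed to 37.6 CPM in the Cd3-high cells and 44.0 in the Cd3-low cells. Its sum was 71.8 CPM in the NK gate, 43.8 in the T gate and 12.7 in the B gate.

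Against the T gate, 57 of 8547 genes were higher in the Cd3-high cells (0.667%) and 46 lower (0.538%). In the NK list 7 of 17 measured genes were higher and none lower: Klre1, Klrd1, Gzmm, Il2rb, Xcl1, Cd244 and Cd7. The chemokine Xcl1 had 1233 CPM in the Cd3-high cells, 307 in the T gate and 266 in the B gate, and this mean rested on PC1 fresh with 4627 CPM (748 CPM without it). Klrd1, the CD94 receptor chain, had 801 CPM against 342 and 249, and Gzmm 2353 against 961 and 810. In contrast, Prf1 and Gzmb, at 504 and 152 CPM, differed little from the T gate (392 and 130 CPM) and the B gate (374 and 137 CPM). In the T list none of 13 measured genes was higher and 2 were lower, Bcl11b (31.9 against 68.8 CPM) and the costimulatory receptor gene Icos (32.9 against 84.0 CPM). Other genes that were lower than in the T gate were Cd40lg, the CD40 ligand (9.05 against 91.0 CPM), Tnfrsf4, the costimulatory receptor OX40 (18.2 against 70.6 CPM), and Foxp3, a transcription factor of regulatory T cells (3.02 against 13.3 CPM). For Tnfrsf4 the Cd3-high mean rested on PC2 DMSO, with 121 CPM against at most 12.0 in the other libraries. Mast cell protease-like genes were among the higher genes, with Mcpt1l4 at 342 against 79.1 CPM.

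**Figure D3:**
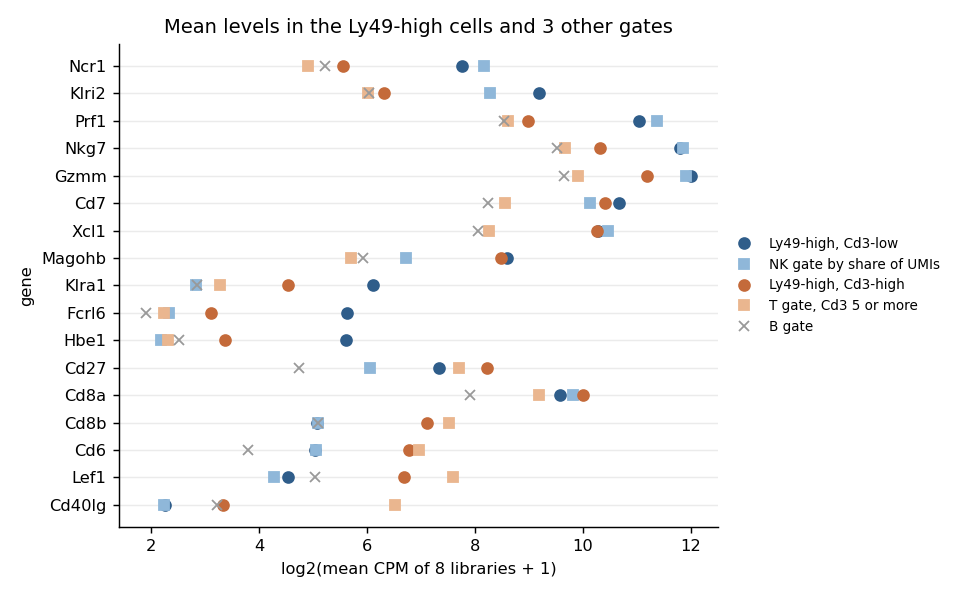
Mean level over 8 libraries, as log2(CPM + 1) (horizontal axis), of 17 genes in Cd3-low and Cd3-high Ly49-high cells, the NK gate, the T gate and the B gate. Gzmm lies near the NK gate in the Cd3-low cells (4132 CPM) and lower in the Cd3-high cells (2353 CPM), whereas Magohb is above the NK, T and B gates in both; Prf1 helps define the NK gate.

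Between the 2 kinds directly, 52 of 8588 genes were higher in the Cd3-high cells (0.605%) and 98 lower (1.14%), beside the CD3 and Ly49 genes that were left out. In the T list 5 of 12 were higher: Cd6, Lef1, Cd8b, Bcl11b and Trat1. Lef1, a transcription factor of less differentiated T cells, had 103 against 22.3 CPM. In the NK list 5 of 18 were lower, Ncr1, Nkg7, Gzma, Gzmb and Prf1, and so were Klri2, a killer lectin-like receptor (78.8 against 581 CPM), Cd24 (45.0 against 257 CPM) and the chemokine Ccl5 (7162 against 24080 CPM). Interleukin 2 (Il2) had 11.2 CPM in the Cd3-high cells and 0.123 in the Cd3-low cells. With the split set before, 0 CD3 UMIs against at least 2, 19 of 8552 genes were higher (0.222%) and 65 lower (0.76%). The same 5 genes of the T list were called, and Ncr1, Gzmb and Prf1 of the NK list.

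Some genes were shared by both kinds and set them apart from barcodes without a Ly49 UMI. Magohb, which encodes a protein of the exon junction complex and lies at the end of the Ly49 cluster, had 389 CPM in the Cd3-low and 358 in the Cd3-high cells, against 106 in the NK gate, 51.5 in the T gate and 59.9 in the B gate. In all Ly49-high cells it ranged from 255 CPM in NC1 fresh to 505 in NC2 DMSO. Sh3bgr had 15.3 and 26.6 CPM, against 0.834 and 3.18 in the NK and T gates. Lag3, an inhibitory receptor of activated lymphocytes, had 192 and 174 CPM against 81.3 and 75.7, and was picked out after its values were seen.

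All Ly49-high cells together were also set against broader gates, likewise as a description. Against an NK gate of at least 3 UMIs of Nkg7, Klrd1 and Prf1 with no CD3 UMI (3298 barcodes), 95 of 10336 genes were higher (0.919%) and 362 lower (3.5%). Of the myeloid list, 11 of 15 measured genes were lower, and lysozyme 2 (Lyz2) had 2965 CPM in the Ly49-high cells, 8085 in this NK gate and 2902 in the NK gate by share of UMIs. Fcrl6, Sh3bgr, Ly49s4, Ms4a4c and Klra1 led the higher genes. Against a T gate of at least 2 CD3 UMIs (2344 barcodes), 98 of 10231 genes were higher (0.958%) and 181 lower (1.77%), with Ly49s4, Fcrl6 and Klra1 highest and Lyc2, Cd40lg and Rab3ip lowest.

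A further gate held 3002 barcodes with a Clec4a3 UMI, fewer than 3 Ly49 UMIs and no UMI of Siglech or Cd79a. Against it, 702 of 10492 genes were higher (6.69%) and 852 lower (8.12%). Here 14 of 18 measured NK genes were higher, 14 of 16 T cell genes were higher and 15 of 16 myeloid genes were lower. Against all other barcodes, 996 of 13428 genes were higher (7.42%) and 624 lower (4.65%). The first count rests mostly on genes with few UMIs, whose ratios depend on the added count: 255 of the 996 had at least 100 UMIs, and 408 were also 2-fold higher in mean CPM. Of the lists, 13 of 19 NK genes were higher and 13 of 16 myeloid genes lower. Lyz2 was still the most abundant myeloid gene in the Ly49-high cells, at 2965 CPM beside 3956 in the B gate, which is near the level that barcodes of another cell type carried. The B list summed to 57.4 CPM beside 3053 in the B gate, but it holds Cd79a, by which both were chosen. Cd79b, which chose neither, had 51.0 and 1560 CPM. Hepatocyte genes summed to 4.68 CPM in the Ly49-high cells.

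The share of Ly49-high cells overlapped between fresh and DMSO libraries and between diets. Of the barcodes within the limits they made up 3.16%, 6.39%, 5.77% and 4.08% in fresh NC1, NC2, PC1 and PC2, and 2.39%, 7.02%, 6.38% and 5.07% after DMSO. DMSO was higher in 3 of 4 animals and lower in NC1, and the paired differences averaged 0.363 ± 0.776 percentage points (SD, n = 4, p = 0.5, two-sided exact permutation of signs, which cannot reach 0.05 with 4 animals). CDAA and CSAA animals, at means of 5.33% and 4.74%, overlapped (p = 1, two-sided exact permutation of animals, which cannot go below 0.33 with 2 against 2).

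The 2 kinds differed between the diets. Of the Ly49-high cells, 33.6% in NC1 and 34.8% in NC2 were Cd3-high when fresh, against 17.2% in PC1 and 9.94% in PC2. After DMSO the shares were 52.9%, 43.2%, 15.3% and 9.35%. The CDAA animals lay below the CSAA animals by 28.2 percentage points (means 12.9% and 41.1%) with no overlap, and p was 0.33 by the exact permutation test of 2 animals against 2, the smallest it can give. Cd3-low Ly49-high cells made up 1.41% and 2.01% of the barcodes within the limits in fresh NC1 and NC2 and 4.12% and 3.15% in fresh PC1 and PC2, and 0.816%, 1.98%, 4.79% and 4.07% after DMSO. Here the CDAA animals were higher, at a mean of 4.03% against 1.55%, again with no overlap and p = 0.33 by the exact permutation test. CD3 UMIs in barcodes of another cell type moved with diet too: over 1 CD3 UMI was found in 26.9%, 27.2%, 10.8% and 4.17% of the B gate in fresh NC1, NC2, PC1 and PC2 and in 16.7%, 21.5%, 10.7% and 5.97% after DMSO, so barcodes of another cell type exceeded the limit of 1 CD3 UMI more often in the CSAA animals. With all Ly49-high cells of at most 4 CD3 UMIs, the means were 4.61% and 2.85%, and fresh NC2 (4.17%) was above fresh PC2 (3.68%).

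**Figure D4:**
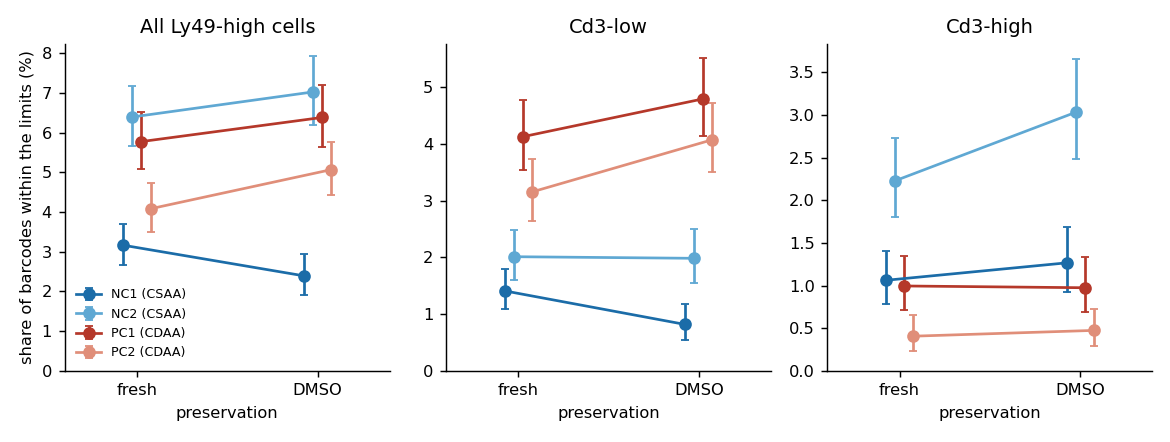
Share of the barcodes within the limits (vertical axis, %) that were Ly49-high, Cd3-low Ly49-high or Cd3-high Ly49-high, fresh and after DMSO, with lines joining the 2 libraries of an animal and bars giving exact 95% binomial intervals for counting error. All Ly49-high cells overlap between diets, while the Cd3-low cells are above 3% in PC1 and PC2 and at most 2.01% in NC1 and NC2, under a limit of 1 CD3 UMI that 7.91% of the B gate in CDAA and 23.1% in CSAA animals exceeded.

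As a share of barcodes, Cd3-high Ly49-high cells were at 1.06%, 2.23%, 0.995% and 0.406% in fresh NC1, NC2, PC1 and PC2. After DMSO they were at 1.27%, 3.03%, 0.974% and 0.473%. The CDAA animals were lower, but PC1 and NC1 lay close together when fresh. The T gate of at least 2 CD3 UMIs without a Ly49 UMI was lower in the CDAA animals too. It held 3.10% of barcodes in the CDAA and 11.7% in the CSAA animals. Among all barcodes with at least 5 CD3 UMIs, 18.9% in CSAA and 26.8% in CDAA animals were Ly49-high, with overlap. Among Cd3-low barcodes with at least 0.3% of UMIs from Nkg7, Klrd1 and Prf1, 8.03%, 11.4%, 29.8% and 17.2% were Ly49-high in fresh NC1, NC2, PC1 and PC2 and 9.36%, 19.2%, 30.6% and 16.7% after DMSO. The animal means of the diets did not overlap (12.0% and 23.6%), although NC2 after DMSO exceeded PC2. Between DMSO and fresh, the Cd3-high share of Ly49-high cells differed by 6.28 percentage points (SD 9.85, n = 4, p = 0.5, exact permutation of signs), and by 1.91 without NC1, up in both CSAA and down in both CDAA animals.

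Immediate early genes were higher after DMSO in the Ly49-high cells. With UMIs summed over the cells of a library and the animal as a block, edgeR's quasi-likelihood test called 35 of 6547 genes at a Benjamini-Hochberg adjusted p under 0.05 and at least a 2-fold change, 20 higher (0.305%) and 15 lower (0.229%) after DMSO. Of the early response list, 8 of 13 genes tested rose and none fell (median log2 change 1.49 beside -0.0026 for all genes).

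The transcription factor Fos had 75.2, 20.4, 11.4 and 10.8 CPM in fresh NC1, NC2, PC1 and PC2 and 1006, 1238, 746 and 910 CPM after DMSO. Fosb had 17.7, 6.81, 3.04 and 2.95 CPM fresh and 493, 1151, 511 and 477 after DMSO. In both genes every DMSO library lay above every fresh library. The log2 change was 5.39 ± 0.24 (SE) for Fos (edgeR adjusted p = 3.24e-10) and 6.78 ± 0.22 for Fosb (adjusted p = 3.52e-12). Jun rose by 3.90 ± 0.20 (adjusted p = 1.93e-09) and Dusp1, a phosphatase of MAP kinases, by 2.61 ± 0.21 (adjusted p = 9.17e-07), and Klf6, Junb, Zfp36 and Btg2 rose as well. The chemokines Ccl3 and Ccl4 rose by 1.82 and 1.18 (edgeR adjusted p = 0.000541 and 0.000129). Interferon gamma (Ifng) had 0 to 1.52 CPM fresh and 6.39 to 10.2 CPM after DMSO. The filter on low counts left Ifng out, so its change was not tested. Other genes that rose were Rgs1 and Rgs2, regulators of G protein signalling, and Chrne.

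The B gate carried a rise as well: per UMI, Fosb was 36.9-fold higher after DMSO in it and 108-fold in the Ly49-high cells, Fos 19.8-fold and 40.6-fold, and Jun 12.0-fold and 14.3-fold. In the T gate of at least 5 CD3 UMIs, Fos was 24.2-fold higher, but Fosb (127-fold), Jun (24.9-fold) and Dusp1 (8.82-fold, against 5.76-fold in the Ly49-high cells) were above the Ly49-high cells; these differences were not tested. In the Cd3-low and Cd3-high cells Fosb was 119-fold and 79.6-fold higher. In an edgeR test of the difference between the responses, with the library as a block, 2 of 10684 genes differed between the Ly49-high cells and the other barcodes (0.0187%). Fos rose by 0.78 ± 0.14 (log2, SE) more in the Ly49-high cells (adjusted p = 0.015), and LOC100361706 by 0.46 ± 0.07 less (adjusted p = 0.00272). Neither was called in cells with at most 10000 UMIs (edgeR adjusted p = 0.218 and 0.146), and for Fos the DESeq2 adjusted p was 0.127. Set beside the NK gate of at least 3 UMIs, 5 of 7309 genes differed (0.0684%), and for each the change was lower in the Ly49-high cells: Ccl1, Fcnb, Lyz2, G0s2 and S100a4. This gate held more myeloid RNA than the Ly49-high cells, with 8085 against 2965 CPM of Lyz2. None of the 5 genes was called by DESeq2 or with the NK gate by share of UMIs, and with Cd3-low cells and that gate Ccl1, Fcnb and Lyz2 had differences of 0.56, 0.0591 and 0.12 (log2).

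**Figure D5:**
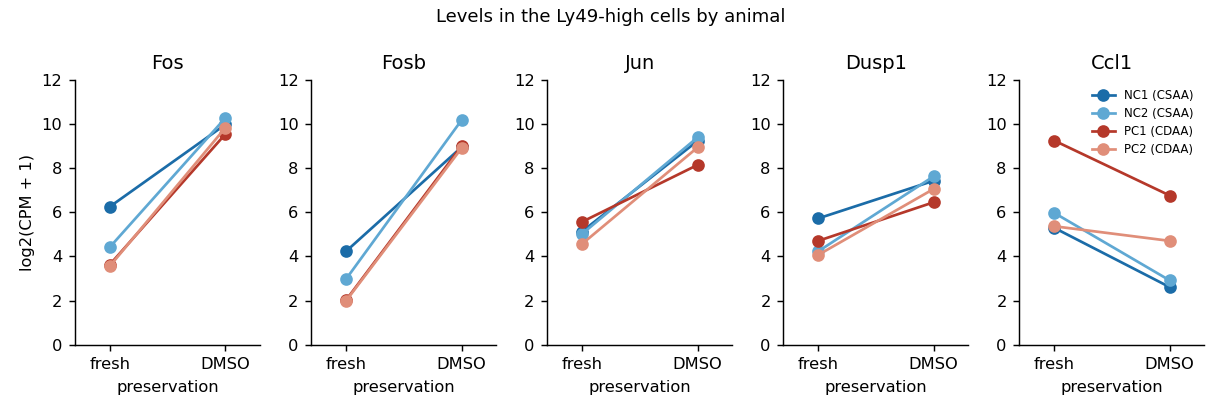
Level of 5 genes in the Ly49-high cells as log2(CPM + 1) (vertical axis), fresh and after DMSO, with a line for each of 4 animals. Fos, Fosb, Jun and Dusp1 are higher after DMSO in every animal, and Ccl1 is lower in every animal, with PC1 fresh far above the other libraries (607 CPM).

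Ccl1, a chemokine of activated T cells, fell by 2.24 ± 0.21 on the log2 scale (edgeR adjusted p = 6.28e-06), from 38.4, 61.9, 607 and 40.3 CPM in fresh NC1, NC2, PC1 and PC2 to 5.11, 6.53, 107 and 25.1 CPM. The value of 607 came from the Cd3-high cells of PC1, with 2953 CPM in 41 cells, and in the Cd3-low cells alone the change in Ccl1 had the opposite sign (log2 change 0.58). Wnt4, Emc2, Gnas, Fxyd2, Rhoq, Fbxo10, Vamp8 and Slc9a3r1 fell by 1.19 to 1.64 on the log2 scale. Of these, Rhoq was at 0.364 of the fresh level per UMI in the Ly49-high cells and at 0.852 in the B gate, whereas the other genes were at 0.284 to 0.462 in the B gate. In the T gate of at least 5 CD3 UMIs all of them were at 0.439 to 0.835. No gene of the NK, T cell, cytotoxic or NK maturation lists was called, with 17, 14, 9 and 7 genes tested. Over all genes 35 of 6547 were called, so the absence of calls does not set lists of this size apart.

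The diet comparison used 2 animals against 2. When fresh, 18 of 6691 genes were higher (0.269%) and 11 lower (0.164%) in the CDAA animals by the edgeR test, and after DMSO 30 of 6657 were higher (0.451%) and 9 lower (0.135%). Both comparisons use the same animals. In the test of the difference between them, 0 of 7278 genes were called (0.0%) by edgeR, with 340 at an unadjusted p under 0.05, and 0 by DESeq2.

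The genes with the largest differences among those called higher when fresh were Spp1, Fabp4, Lpl, Apoe and Gpnmb. Apoe, apolipoprotein E, had 11.8 and 11.6 CPM in fresh NC1 and NC2 and 190 and 221 CPM in fresh PC1 and PC2 (log2 difference 4.09 ± 0.23, edgeR adjusted p = 1.29e-05). The fatty acid binding protein gene Fabp4 differed by 7.37, the lipase gene Lpl by 5.03, Gpnmb by 3.98 and the lysosomal gene Cd63 by 2.59 (edgeR adjusted p = 1.68e-05, 0.00104, 0.0011 and 0.000142). Spp1, osteopontin, had 0 UMIs in the fresh CSAA libraries and 221 in the fresh CDAA libraries, at least 67.7-fold higher against a floor of 3 UMIs over the group. After DMSO, Mmp12, a macrophage elastase, had 0 and 145 UMIs (at least 32.8-fold higher by the same floor), and the myeloid genes Cd14, Csf1r, Cd68, Aif1 and Lst1 were called higher, 5 of 12 tested on the myeloid list, and none lower. When fresh, 0 of 14 tested genes of this list were called higher and 1 lower, Fcgr3a, a low-affinity Fc receptor of myeloid and NK cells. Fcgr3a had 147.5 and 157.9 CPM in fresh NC1 and NC2 and 74.4 and 75.7 CPM in fresh PC1 and PC2 (log2 difference -1.06 ± 0.17, edgeR adjusted p = 0.0223). Per UMI it was at 0.485 of the CSAA level in the Ly49-high cells, 0.771 in the B gate and 0.514 in the other barcodes.

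Apoe, Fabp4, Lpl, Gpnmb, Cd63 and Spp1 were also higher per UMI in the B gate of the CDAA animals. In the fresh libraries Apoe was 17.5-fold higher per UMI in the Ly49-high cells and 12.2-fold in the B gate, Cd63 6.07-fold and 6.68-fold, and Gpnmb 16.4-fold and 42.7-fold. Apoe had 203 and 190 CPM in the CDAA animals in the 2 populations and 594 in the other barcodes. After DMSO, Apoe had 5.11 and 5.08 CPM in NC1 and NC2, 190 in PC1 and 683 in PC2. The folate receptor gene Folr2 and the GTPase gene Gem differed after DMSO without a difference in the B gate: Folr2 was 12.9-fold higher in the Ly49-high cells (76 against 4 UMIs) and 0.955-fold in the B gate, and Gem 35.3-fold (52 UMIs against 1, 95% counting interval 6.07 to 1421) and 1.07-fold. In the other barcodes, however, Folr2 was 3.81-fold and Gem 2.61-fold higher, and in the T gate of at least 5 CD3 UMIs Gem was 3.74-fold higher. The part of RNA from other cells in these differences was not tested.

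The CD3 genes were lower in the CDAA animals. When fresh, 3 of 15 genes of the T list were called lower, all of them CD3 genes, and none higher, and after DMSO 6 of 14 were lower and none higher. Cd3g, Cd3d and Cd3e differed by -1.37, -1.46 and -1.30 (log2) when fresh (edgeR adjusted p = 0.00151, 0.00348 and 0.0144), and by -2.01, -1.78 and -1.78 after DMSO, where Cd8b, Lef1 and Trat1 were called too. After DMSO and per UMI, Cd3g was at 0.287 of the CSAA level in the Ly49-high cells and 0.411 in the B gate. Cd3d was at 0.326 and 0.461, and Cd3e at 0.347 and 0.368. Lef1 was at 0.377 and 0.933, Cd8b at 0.393 and 0.524, and Trat1 at 0.24 and 0.207. When fresh, the CD3 genes moved about as far in the B gate. Per UMI and when fresh, Cd3d, Cd3g and Cd3e in the CDAA animals were at 0.379, 0.396 and 0.435 of the CSAA level in the Ly49-high cells, 0.427, 0.358 and 0.405 in the B gate and 0.308, 0.390 and 0.315 in the other barcodes, which hold the T gate. Within classes set by these genes they were at 0.600, 0.479 and 0.350 in the Cd3-low and at 0.903, 0.882 and 1.10 in the Cd3-high cells. The Cd3-high share of the cells is made from these same CD3 genes, so it is not a separate result. The guanine exchange factor gene Rab3ip, which was high in the T gate, had 20.65 and 12.25 CPM in fresh NC1 and NC2 and 0.759 and 0.983 in PC1 and PC2. Scand1, Ube2s, Srsf2 and Fam111a were also lower when fresh, and in the B gate these 4 genes were at 0.381 to 0.420 of the CSAA level.

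No gene of the NK or cytotoxic lists was called between diets (17 and 9 genes tested when fresh, 17 and 10 after DMSO). Over all genes 29 of 6691 were called when fresh and 39 of 6657 after DMSO. At these shares the absence of calls does not set such short lists apart. When the fresh diet difference was set against that of the NK gate of at least 3 UMIs, 118 of 7324 genes passed in edgeR (1.61%), 43 higher and 75 lower in the Ly49-high cells. With 2 residual degrees of freedom, this fit took the spread from a gene's abundance alone and used none of the gene's own spread between animals. Its p-values therefore rest on that assumed spread and may be too small, and its values are given as a description. By DESeq2 10 genes passed, and 19 in Cd3-low cells alone. In the NK list 6 of 15 genes passed, with log2 differences of 0.88 for Ncr1, 0.69 for Gzma, 0.63 for Cd7, 0.61 for Il2rb, 0.49 for Xcl1 and 0.45 for Gzmb. The Cd3-high share of the Ly49-high cells moved with diet as well, and the counts of the NK list fell to 3 by DESeq2, to 3 in Cd3-low cells alone and to 2 (Cd7 higher and Gzmm lower) with Cd3-low cells and the NK gate by share of UMIs. In both settings with Cd3-low cells Ncr1 no longer passed, with 0.52 and 0.28 (edgeR adjusted p = 0.476 and 0.773). The neutrophil genes S100a9, S100a8 and Mmp8 had negative values (-2.11, -1.35 and -4.08). Here the gate moved: the neutrophil list summed to 192 and 384 CPM in the NK gate of fresh NC1 and NC2 and to 2432 and 1501 in PC1 and PC2, beside 158, 87.1, 181 and 265 CPM in the Ly49-high cells of the same libraries. With the NK gate by share of UMIs, S100a8 had 0.19.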

How the data were processed

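The 8 libraries (10x 3′ v2 kit) held liver immune cells of 4 rats, fresh and after DMSO. The authors deposited raw counts, whole numbers of UMIs for 32754 genes in 737280 barcodes per library, with no normalization. Per the study's methods, reads were processed with Cell Ranger 2.1.1 on Rnor6.0 with Ensembl 86; the submitters' processing notes for these samples also name bcl2fastq 2.17.1.14 and STAR. Library totals were 18338700 to 26471843 UMIs.

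Barcodes with at least 500 UMIs and under 20% from 13 mitochondrial genes were kept. The members, the gene lists and the comparisons were chosen with earlier results of these data known. The split of the cells at 1 and 5 CD3 UMIs, the gates by share of UMIs and with 5 CD3 UMIs, and the alternatives with at most 10000 UMIs, with other CD3 limits or on part of the cells were chosen after seeing the data. No doublet caller was run. Of the 1608 cells, 93 had over 10000 UMIs, 38 of them among the 406 Cd3-high and 34 among the 906 Cd3-low cells. In the T gate of at least 5 CD3 UMIs, 27 of 1071 barcodes did, and in the NK gate by share 22 of 2802.

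UMIs were summed per library and population. Genes were tested with edgeR 4.0.16 in R 4.3.3 (quasi-likelihood, TMM, filterByExpr with a minimum count of 10), with Benjamini-Hochberg adjustment over all genes tested and the 8 genes of the choice left out. Tests against the NK gate or the other barcodes also left out Nkg7, Klrd1, Prf1, Cd3d, Cd3e and Cd3g. Calls needed an adjusted p under 0.05 and, outside tests of a difference between responses, at least a 2-fold change. The animal was a block for preservation, as the labels give fresh and DMSO samples of the same animal; the deviations of the libraries of 1 animal correlated at r of 0.32 to 0.53 over 5623 genes. The NK and T gates had no Ly49, Clec4a3, Siglech or Cd79a UMI. Profiles used log2 ratios of CPM with 0.5 added per count, for genes with at least 20 UMIs, and carry no test. Genes named are the Ly49, killer lectin-like and lineage genes, members of the lists, Fos, Fosb, Jun, Dusp1 and Ifng, and, upwards and downwards, the 10 called genes with the greatest change that moved alike in every animal or did not overlap between diets. Some Klra5 UMIs were given under a second identifier and were summed. Intervals are exact binomial at 95% and, with floors of 3 counts, cover counting error only. The fits were tested on simulated counts with genes changed 2-fold and 4-fold. Recovery was 85.9% and 100% for DMSO against fresh (6391 genes), 77% and 96% for diet when fresh (6432 genes), 34% and 83% for diet by preservation (7018 genes), 56.7% and 94.9% for the DMSO response against the NK gate (7082 genes) and 52% and 82% for diet against the NK gate (7051 genes). Unchanged genes made up 19 of 203, 27 of 200, 6 of 123, 12 of 161 and 7 of 141 calls with no fold minimum, and 4, 16, 3, 5 and 4 with a 2-fold minimum. DESeq2 1.42.0 served as an alternative, and sums and shares were computed with pandas 2.3.3, scipy 1.17.1 and numpy 2.4.6 under Python 3.11.15.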

Additional observations from a re-analysis of the deposited data

Results flagged for a closer look

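The following values differed between populations or diets under the same contrast. In the response to DMSO, the log2 change in the Ly49-high cells minus that in the NK gate was -2.95 for the chemokine gene Ccl1, -0.76 for Fcnb, -0.65 for Lyz2, -0.60 for G0s2 and -0.46 for S100a4 (edgeR test of the difference, adjusted p = 0.00776, 0.0191, 0.00776, 0.0479 and 0.0191). With Cd3-low cells and the NK gate by share of UMIs, Ccl1 had 0.56, Fcnb 0.0591 and Lyz2 0.12. Minus the change in the other barcodes, Fos had 0.78 and LOC100361706 -0.46, and neither was called in cells with at most 10000 UMIs.

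In 4 shares every CSAA animal moved one way from fresh to DMSO and every CDAA animal the other way; the difference was not tested. The Cd3-low Ly49-high share of barcodes within the limits moved by -0.592 and -0.0282 percentage points in NC1 and NC2 and by 0.668 and 0.922 in PC1 and PC2. The Cd3-high share of the Ly49-high cells moved by 19.4, 8.3, -1.97 and -0.596 points, the share with at least 2 CD3 UMIs by 10.4, 3.22, -3.67 and -3.18, and the Ly49-high share of barcodes with at least 5 CD3 UMIs by 1.21, 0.107, -1.37 and -1.81. No group held the 4 samples that a check for single distant samples needs.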

How the results depend on the processing

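Of the alternative values for counts and shares, 193 were taken as kept, 69 moved and 2 turned. Counts were kept within 1.5 times the main value, and shares of cells with a lineage gene within the replicate spread. Differences in share were judged by direction alone, so their size could change. The DMSO difference in the Cd3-high share, 6.28 points, was as low as 1.91 without 1 animal. For the Cd3-low share of barcodes it was 0.242 and as low as 0.016. Without 1 animal, a diet comparison has only 1 animal in a group, and the other diet alone gives the spread. The diet counts without 1 animal are therefore a description only. For DMSO against fresh (35 called), 185 genes were called with no fold minimum, 13 by DESeq2, 73 with no filter, 12 with no replicate block, 15 in cells with at least 5 CD3 UMIs and 18 to 52 without 1 animal (18 without NC2). For diet when fresh (29), there were 125 with no filter, 19 at a Ly49 sum of at least 5, 11 and 6 in the Cd3-low and Cd3-high cells and 36 to 132 without 1 animal (111 without NC1, 132 without NC2, 49 without PC1). For diet after DMSO (39), there were 157 with no filter, 79 at a Ly49 sum of at least 5, 107 with at most 10000 UMIs, 13 and 12 in the Cd3-low and Cd3-high cells and 109 to 153 without 1 animal. With the animal number as a replicate block, diet gave 119 (fresh) and 104 (DMSO) calls, but the numbers do not pair animals of different diets (r = 0.0242 and 0.0247). For diet by preservation (0), there were 3 with no filter, 3 in the Cd3-low cells and 0 to 46 without 1 animal (46 without NC2, 5 without NC1).

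For the response to DMSO against the NK gate (5), 1 gene passed 2-fold, 0 DESeq2, 30 no filter, 1 a Ly49 sum of at least 5, 0 the NK gate by share of UMIs, 2 that gate with Cd3-low cells, 8 Cd3-low cells alone and 0 to 12 without 1 animal. Against the other barcodes (2), the counts were 0 at 2-fold, 1 by DESeq2, 17 with no filter, 5 at a Ly49 sum of at least 5, 0 with at most 10000 UMIs, 10 in Cd3-low cells and 2 to 8 without 1 animal. For the diet difference against the NK gate (118), they were 34 at 2-fold, 10 by DESeq2, 29 at a Ly49 sum of at least 5, 64 with at most 10000 UMIs, 24 in Cd3-low cells with the gate by share of UMIs, 19 in Cd3-low cells alone and 37 to 87 without 1 animal. Genes higher than in the other barcodes (996) became 1597 at a Ly49 sum of at least 5 and 2430 with a count of 1 added. They became 255 at a minimum of 100 UMIs and 1014 to 1524 without 1 animal. Those higher than in the NK and T gates became 127 to 144 and 116 to 153 without 1 animal. With an animal left out, the sign had to agree in fewer libraries, an easier rule that by itself raises these counts.

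As the share expected in 1000 UMIs, the mean over libraries was 16.8% for Cd3d, 18.3% for Cd3e, 22.1% for Cd3g, 21.6% for Cd247, 16.4% for Cd27 and 15.6% for Ncr1. The diet difference in the share of Ly49-high cells was -1.38 points without NC1 and -0.169 without PC1 (range -1.38 to 2.55), whereas the Cd3-high share differed by -31.5 to -24.9. Among named genes, 786 values kept their call, 271 lost it and 16 turned: Ccl1 after DMSO in Cd3-low cells (0.58); Cd3e by diet in Cd3-high cells, which Cd3e itself helps define (0.0721 and 0.0625); Ccl1 (0.56), Fcnb (0.0591) and Lyz2 (0.12) against the NK gate by share of UMIs in Cd3-low cells; and, for diet against the NK gate, Nr4a2 without PC1 (-0.17; 4.47 without PC2), Cxcl9 without NC2 (0.60; -2.84 without PC2), RGD1562667 with the gate by share of UMIs (0.0776), Lrg1 with that gate and Cd3-low cells (0.14), Ubd without NC2 (1.39; -2.63 without NC1), at a Ly49 sum of at least 5 (0.64), with that gate and Cd3-low cells (1.98) and in Cd3-low cells alone (1.63), and S100a8 with that gate (0.19) and Cd3-low cells too (0.67). The causes were not tested. Depth limits most the DMSO library of NC1, with 85 cells.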
